A study of Mus musculus with 9 samples.

Results

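DNA replication in mouse cells is carried out by a conserved set of proteins that license origins, unwind the double helix, copy both strands and repack the new DNA. The 40 genes described here encode members of that machinery, together with the cyclin E genes, 2 E2F transcription factors and chromatin factors that act in S phase. They were taken by gene symbol from a list of names, and none was chosen by a threshold on its values. The list was drawn up with earlier results of these data known. Shares of the 40 genes set beside those of all genes are therefore descriptions and not tests. All 40 were found among the 51826 genes counted, and all 40 had enough counts to be tested.

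The study measured poly-A RNA in cultures of RAW 264.7, a macrophage line of mouse origin transformed by Abelson murine leukaemia virus that divides continuously in culture. In the first group, cells were exposed to calycosin, a plant isoflavone, at 100 µg/mL over 24 h and then to lipopolysaccharide (LPS) at 300 ng/mL over 6 h. A second group received the same LPS exposure alone, and the last group received vehicle. Each group held 3 cultures that the labels call biological replicates, no group received calycosin without LPS, and the labels do not say whether the LPS cells had solvent during the 24 h before LPS. All 9 cultures come from 1 transformed line, so the vehicle level is that of dividing cells and not of resting primary macrophages.

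Before S phase, the origin recognition complex (Orc1 to Orc6) with Cdc6 and Cdt1 loads the MCM2-7 helicase onto DNA in an inactive form. Cyclin E with its kinase, and a further kinase made of Cdc7 and Dbf4, then start the helicase, which joins Cdc45 and the GINS complex. DNA polymerase alpha with primase lays down primers, polymerases epsilon and delta extend them along the sliding clamp Pcna, and Fen1 and Lig1 join the pieces of the lagging strand. Many of these genes are known targets of E2F transcription factors, which are held back by retinoblastoma family proteins until cells commit to division. LPS is known to slow the proliferation of macrophages while it drives their inflammatory program.

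Promoter sequences are shown for 4 genes because E2F sites are the best known shared element of this gene class, and because the 4 differ in how they responded. The windows run from 250 bases before to 50 bases after the annotated start, in GRCm38.p6 from RefSeq, 5′ to 3′ on the strand of the gene. The gene positions given further below come from GENCODE M21, whose starts can differ. Every window of Cdc6, E2f1 and Mcm7 lies inside the GENCODE gene, so none holds bases upstream of the GENCODE start. The same holds for the windows that carry the matches of Lig1 and Uhrf1, although each of these genes has another window that does not. Capitals mark each match to an E2F-type motif, searched as TTTCCCGC, TTTCGCGC, TTTGCCGC or TTTGGCGC on either strand. Cdc6 (chr11:98907901-98908200, plus strand) and Cdca7 (chr2:72475969-72476268, plus strand) each hold 1 match and were among the most reduced genes with LPS. Mcm6 (chr1:128359656-128359955, minus strand) holds 3 matches, of which 2 overlap each other, and was the least reduced helicase subunit. Rfc3 (chr5:151651159-151651458, minus strand) holds 2 matches beside its start and did not pass the test with LPS.
Cdc6: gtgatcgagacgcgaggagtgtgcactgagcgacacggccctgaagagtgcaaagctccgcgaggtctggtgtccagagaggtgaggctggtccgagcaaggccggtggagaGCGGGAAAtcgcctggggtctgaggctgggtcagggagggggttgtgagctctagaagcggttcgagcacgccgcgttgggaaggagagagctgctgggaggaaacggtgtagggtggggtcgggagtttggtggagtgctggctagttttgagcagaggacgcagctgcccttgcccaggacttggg
Cdca7: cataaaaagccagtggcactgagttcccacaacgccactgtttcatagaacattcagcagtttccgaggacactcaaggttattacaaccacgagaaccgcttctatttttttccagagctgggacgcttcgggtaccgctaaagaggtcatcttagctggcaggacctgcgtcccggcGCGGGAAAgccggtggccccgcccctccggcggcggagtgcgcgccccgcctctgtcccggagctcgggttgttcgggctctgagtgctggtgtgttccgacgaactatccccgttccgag
Mcm6: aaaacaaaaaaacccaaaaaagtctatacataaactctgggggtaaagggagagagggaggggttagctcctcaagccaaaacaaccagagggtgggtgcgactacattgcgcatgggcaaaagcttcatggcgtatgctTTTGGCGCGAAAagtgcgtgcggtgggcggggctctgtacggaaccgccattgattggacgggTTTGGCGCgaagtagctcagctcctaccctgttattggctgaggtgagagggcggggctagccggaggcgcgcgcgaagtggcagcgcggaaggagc
Rfc3: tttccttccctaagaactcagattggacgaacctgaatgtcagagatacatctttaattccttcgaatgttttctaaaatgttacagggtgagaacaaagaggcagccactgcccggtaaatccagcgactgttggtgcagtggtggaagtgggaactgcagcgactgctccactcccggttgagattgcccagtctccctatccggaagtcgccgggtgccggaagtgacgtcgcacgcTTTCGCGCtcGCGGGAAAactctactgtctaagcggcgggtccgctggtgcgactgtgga

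An E2F-type match was common in these promoters. Of the 40 genes, 32 were matched by symbol to a promoter window in the RefSeq table, and 15 of these 32 (46.9%, exact 95% interval 29.1% to 65.3%) held at least 1 match. Among all 27025 genes with a window of the same length, 704 (2.61%) held one. The 32 were chosen by name and not drawn at random, and all genes were not matched to them for base content. The interval is therefore not a test against that share. The 15 were Cdc6, Cdca7, Cdt1, E2f2, Gins3, Lig1, Mcm3, Mcm5, Mcm6, Mcm7, Orc1, Pola1, Pold1, Rfc3 and Uhrf1. The letters CCAAT, the core of the NF-Y site, were found on either strand in 19 of the 32 (59.4%) and in 41.1% of all genes with a window. Mcm4, Gins1, Gins2, Gins4, Prim2, Pole, Rfc2 and Ccne2 were not in the table.

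**Figure D1:**
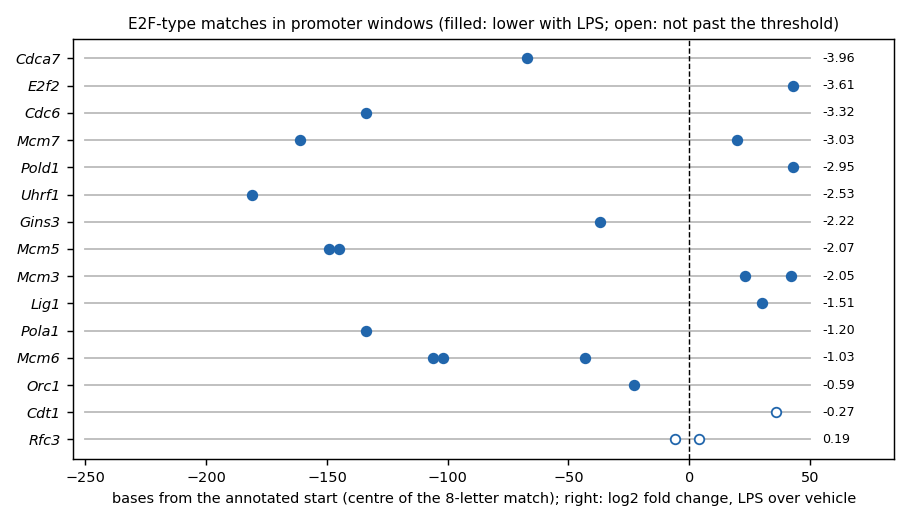
Positions of E2F-type matches in the promoter windows of the 15 genes that hold one; the x axis gives bases from the annotated start, the dashed line marks that start, and genes are ordered by their log2 fold change with LPS over vehicle, printed at the right. Filled points are genes lower with LPS and open points, at Cdt1 and Rfc3, are genes that did not pass the test.

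The match did not separate genes by their response. Of the 15 genes with a match 13 fell with LPS, with a median log2 fold change of -2.07, and of the 17 without one 13 fell, with a median of -1.82. With calycosin before LPS, 13 of the 15 and 12 of the 17 were higher than with LPS alone. These counts describe letters in short windows, depend on the RefSeq start used, and were not tested.

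Total gene counts per library ran from 27784737 to 38524105, and levels below are in CPM, which are counts scaled by the effective library size. The share of counts on mitochondrially encoded genes was 17.2%, 7.45% and 19.4% in the calycosin plus LPS libraries, 14.1%, 14.7% and 13% in the LPS libraries, and 3.79%, 3.68% and 21.9% in the vehicle libraries. Calycosin plus LPS replicate 2 and vehicle replicate 3 therefore stood apart from their own groups. In vehicle replicate 3, 27 of the 40 genes were lower and 13 higher than the mean of the other vehicle libraries, by a median log2 difference of -0.13 (range -0.83 to 1.00). Of the 8 macrophage markers examined, Cd68, Lyz2, Cd14, Csf1r, Spi1, Fcgr1 and Adgre1 were present in every library, and Mertk had at most 4 counts in a library. Markers of T cells, B cells, epithelium and fibroblasts had at most 9 counts in a library. The endothelial cadherin gene Cdh5 had 20 to 26 counts in calycosin plus LPS libraries, 91 to 133 in LPS libraries and 6 to 21 in vehicle libraries, and Pecam1 at most 20; the part of such cells in the results was not tested.

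The comparison of LPS with vehicle measured how the replication genes responded to an inflammatory stimulus. With 6 h of LPS, 34 of the 40 genes fell and none rose, and 29 of the 34 fell at least 2-fold. The genes that fell furthest were Ung, Cdca7, E2f2, Cdc6 and Gins2, which act in uracil repair, chromatin remodelling, transcription, origin licensing and helicase activation. Pcna, Rfc3, Cdt1, Mcm10, Pola2 and Slbp did not pass the test. Together the 40 genes took 841, 853 and 887 CPM in the LPS libraries, against 2347, 2320.4 and 2100.3 CPM in the vehicle libraries.

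In edgeR's quasi-likelihood test at a Benjamini-Hochberg adjusted p below 0.05, 28.9% of the 14458 genes tested were lower with LPS and 27.3% higher, against 85% and 0% of the 40. A fall of at least 2-fold was called for 17.3% of all genes. The median log2 fold change of the 40 genes was -1.90, against -0.07 over all genes tested. In 37 of the 40 every LPS library was below every vehicle library, which held for 31.3% of all genes. Without calycosin plus LPS replicate 2 and vehicle replicate 3 the test called 37 of the 40 lower, and among libraries with over 10% mitochondrial counts, it called 35; that fit holds 1 vehicle library, which is assumed to vary like the other groups. RNA from whole cultures cannot tell fewer cells in S phase from less mRNA in each cell.

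**Figure D2:**
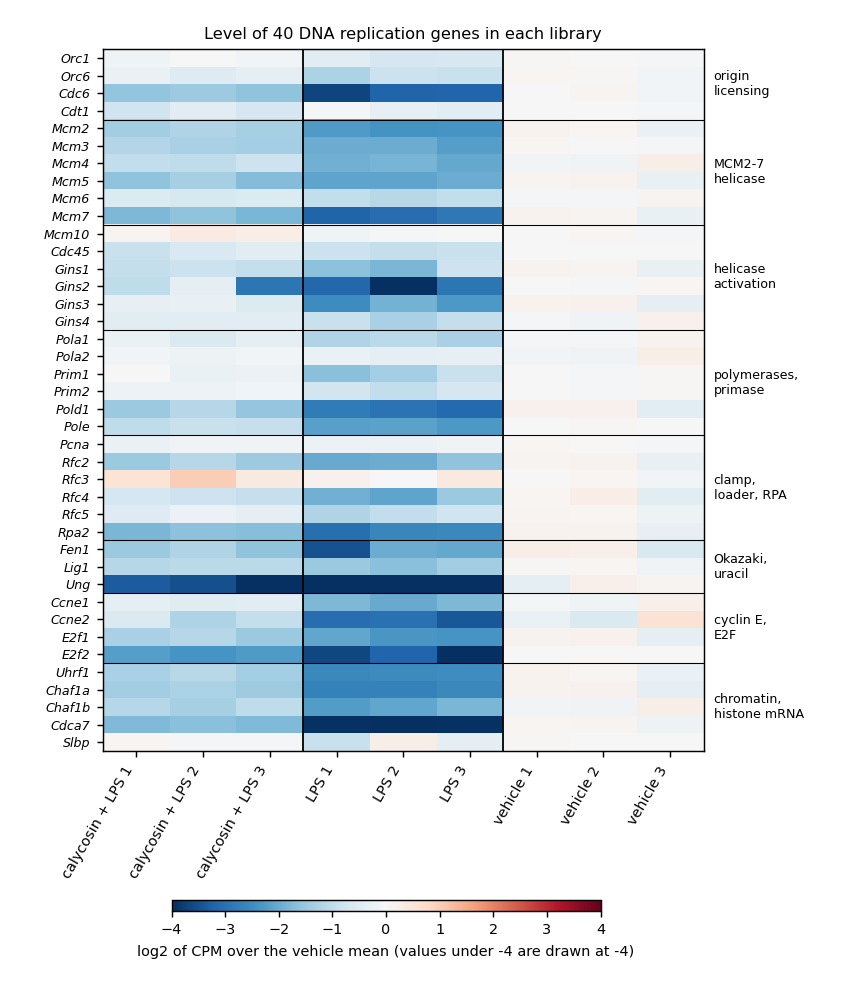
Log2 of CPM in each library over the mean of the 3 vehicle libraries, for the 40 genes grouped by role (rows) in calycosin plus LPS, LPS and vehicle libraries (columns); blue is below the vehicle mean, and values under -4 are drawn at -4. The LPS columns are the bluest for nearly all genes and the calycosin plus LPS columns lie between LPS and vehicle, with a median log2 level of -0.95, -0.87 and -0.89 in calycosin plus LPS, -1.95, -1.94 and -1.80 in LPS, and 0.04, 0.06 and -0.08 in vehicle.

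Among the licensing genes, the loader Cdc6 (chr11:98907801-98923940, plus strand, GRCm38) responded most to LPS. Cdc6 had 1.64, 2.26 and 2.28 CPM in the LPS libraries, against 20.6, 22.4 and 19.1 CPM in the vehicle libraries. All LPS libraries lay far below all vehicle libraries, and the log2 fold change was -3.32 (SE 0.17), with an edgeR adjusted p of 2.13e-07. The origin recognition subunits moved less. Orc6 fell 1.999-fold (edgeR adjusted p = 0.000252) and Orc1, a subunit that binds ATP, fell 1.5-fold (edgeR adjusted p = 0.00332). Cdt1, the partner of Cdc6 in helicase loading, had 60.8, 50.7 and 47.9 CPM with LPS and 64.6, 65.3 and 62.2 CPM with vehicle. The 3 LPS libraries were all lower, but the log2 fold change of -0.27 (SE 0.13) missed the threshold (edgeR adjusted p = 0.107), and passed it without vehicle replicate 3 (0.0472) or without LPS replicate 1 (0.0482).

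All 6 subunits of the MCM2-7 helicase fell with LPS, by unequal amounts. Mcm7 (chr5:138164583-138172422, minus strand) had 9.65, 10.7 and 12.3 CPM in LPS libraries and 98.5, 95.8 and 72 CPM in vehicle libraries. Mcm6 (chr1:128331590-128359664, minus strand) had 72.9, 68.2 and 73 CPM in LPS libraries and 140.0, 139 and 158 CPM in vehicle libraries. The groups did not overlap for either gene, and the log2 fold change was -3.03 (SE 0.16) for Mcm7 and -1.03 (SE 0.10) for Mcm6, with edgeR adjusted p of 3.40e-07 and 1.63e-05. Mcm2 had 35.8, 32.8 and 33.6 CPM with LPS, against 191, 182 and 144 CPM with vehicle, a 5.05-fold fall. Mcm3 had 28.1, 28.3 and 24.3 CPM with LPS and 117, 110.3 and 107 CPM with vehicle, a 4.14-fold fall. In both genes the LPS libraries were close together and below every vehicle library. Mcm4 had 22.4, 23.2 and 20.8 CPM with LPS, against 78.7, 77.4 and 99.2 CPM with vehicle, and fell 3.84-fold. Mcm5 had 32.2, 31.9 and 34.7 CPM with LPS, against 149, 154 and 113 CPM with vehicle, and fell 4.2-fold. Vehicle replicate 3 was the highest vehicle library for Mcm4 and Mcm6 and the lowest for Mcm2, Mcm3, Mcm5 and Mcm7.

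The genes that turn the loaded helicase on were split. GINS is a complex of 4 subunits, and all 4 fell with LPS. Gins2 (chr8:120578633-120589304, minus strand) had 3.73, 1.93 and 4.45 CPM in LPS libraries and 32.6, 31.6 and 35 CPM in vehicle libraries, a log2 fold change of -3.30 (SE 0.55) (edgeR adjusted p = 0.00069). Gins3 had 3.55, 5.45 and 4.11 CPM with LPS and 22.6, 23 and 15.5 CPM with vehicle, a log2 fold change of -2.22 (SE 0.21) (edgeR adjusted p = 1.51e-05). Both had no overlap between groups, while Gins1 and Gins4 fell 2.57-fold and 2.05-fold. Cdc45, the third part of the active helicase, fell 1.87-fold. Mcm10, which helps the helicase start at origins, had 26.1, 28.2 and 29 CPM with LPS, against 29.7, 31.2 and 27.9 CPM with vehicle. These ranges overlapped, and the log2 fold change of -0.09 (SE 0.11) did not pass the test (edgeR adjusted p = 0.5).

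The genes of primer synthesis and elongation fell with LPS, apart from Pola2. Pold1, the catalytic subunit of polymerase delta, had 7.47, 6.68 and 5.94 CPM in LPS libraries and 58.6, 57.8 and 38.9 CPM in vehicle libraries. No libraries overlapped, and the log2 fold change was -2.95 (SE 0.20) (edgeR adjusted p = 1.70e-06). Pole, the catalytic subunit of polymerase epsilon, fell 4.62-fold. In the primase complex the primase subunits Prim1 and Prim2 fell 2.4-fold and 1.72-fold, and the catalytic subunit Pola1 fell 2.29-fold. Pola2, the regulatory subunit beside Pola1, had 44.8, 42.2 and 42.5 CPM with LPS and 49.4, 48.3 and 63.7 CPM with vehicle. All LPS libraries were below all vehicle libraries, yet the log2 fold change of -0.32 (SE 0.13) missed the threshold (edgeR adjusted p = 0.0543); without vehicle replicate 2 the adjusted p was 0.0280 and without vehicle replicate 3 it was 0.0474.

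The sliding clamp and its loader did not move as 1 unit. Pcna (chr2:132249162-132253314, minus strand), the clamp that tethers polymerases to DNA, had 216, 217 and 232 CPM in LPS libraries, against 268, 260.2 and 241 CPM in vehicle libraries. Every LPS library was below every vehicle library by a small margin, and the log2 fold change of -0.21 (SE 0.10) did not pass the test (edgeR adjusted p = 0.0969, and 0.0108 without vehicle replicate 3). Rfc3 (chr5:151642756-151651242, minus strand), a subunit of the complex that opens the clamp, had 21.9, 19.3 and 25.9 CPM with LPS and 19.9, 20.9 and 18.2 CPM with vehicle. These groups overlapped, with a log2 fold change of 0.19 (SE 0.18) (edgeR adjusted p = 0.399). Of the other loader subunits, Rfc2, Rfc4 and Rfc5 fell 3.59-fold, 3.52-fold and 1.98-fold, and Rfc1, the large subunit, which is not among the 40, fell 1.62-fold. Rpa2, a subunit of the protein that coats single-stranded DNA, had 3.64, 4.8 and 4.94 CPM with LPS, against 32.3, 32.1 and 23.3 CPM with vehicle, and fell 6.55-fold (edgeR adjusted p = 1.42e-06).

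The largest change of any of the 40 genes was that of Ung (chr5:114130386-114139323, plus strand), which encodes the glycosylase that removes uracil from newly made DNA. Ung had 4, 3 and 5 counts in the LPS libraries, or 0.182, 0.123 and 0.208 CPM, against 703, 1005 and 645 counts, or 14.1, 20.7 and 19.6 CPM, in the vehicle libraries. LPS left it near the limit of detection of 3 counts per library, so the log2 fold change of -6.70 (SE 0.41) rests on few counts (edgeR adjusted p = 7.19e-07). Fen1, the flap nuclease of the lagging strand, had 5.6, 16 and 15.2 CPM with LPS and 74.5, 72.5 and 41.4 CPM with vehicle. LPS replicate 1 was well below the other LPS libraries and vehicle replicate 3 below the other vehicle libraries, and the gene fell 5.1-fold (edgeR adjusted p = 0.000505). Lig1, the ligase that seals the fragments, fell 2.84-fold.

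The cyclin E and E2F genes, which act at the start of S phase, all fell with LPS. Ccne1 had 10.1, 8.61 and 10.01 CPM in LPS libraries and 33.6, 31.2 and 39.7 CPM in vehicle libraries, a 3.64-fold fall. Ccne2 had 2.5, 2.62 and 1.99 CPM in LPS libraries and 17.2, 13.9 and 31 CPM in vehicle libraries, an 8.7-fold fall. For Ccne2 the vehicle libraries were uneven, with replicate 3 the highest, but every LPS library was lower. E2f2 had 2.14, 2.95 and 1.45 CPM with LPS, against 26.6, 26.7 and 26.9 CPM with vehicle, a log2 fold change of -3.61 (SE 0.22) (edgeR adjusted p = 7.71e-07). E2f1, the best studied activator of S-phase genes, fell 4.78-fold.

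Among the chromatin genes, Cdca7 had 2.23, 2.17 and 2.24 CPM in LPS libraries and 36.8, 36.9 and 30.05 CPM in vehicle libraries. Cdca7 works with the remodeller Hells in keeping DNA methylated, and with a log2 fold change of -3.96 (SE 0.14) it had the smallest adjusted p of the 40 (edgeR, 2.03e-08). Uhrf1, which recruits the maintenance methyltransferase to new DNA, had 21.9, 22.5 and 23.3 CPM with LPS and 144, 138 and 109.5 CPM with vehicle, and fell 5.79-fold. Chaf1a, the large subunit of the assembly factor that places histones on new DNA, had 9.42, 9.39 and 10.4 CPM with LPS and 68.2, 69 and 48.1 CPM with vehicle, and fell 6.34-fold. In all 3 genes the groups were well apart, and Chaf1b, the middle subunit of that factor, fell 4.13-fold. Slbp, which binds the stem-loop of histone mRNAs, had 19.2, 41.8 and 27.8 CPM with LPS, against 36.3, 35.4 and 34.8 CPM with vehicle. The LPS libraries spread on both sides of the vehicle level (log2 fold change -0.26 (SE 0.23), edgeR adjusted p = 0.354, and 0.0186 without LPS replicate 2).

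The 34 calls were kept in each alternative run and when any 1 library was left out. The count of genes that missed the threshold did depend on the measure. On the deposited TPM, which are scaled for transcript length and tested here with limma on log2(TPM + 1), 39 of the 40 were lower with LPS and Rfc3 was not called, but the median of all genes also moved, to -0.61. Relative to that median the 40 genes lay at -1.95 in TPM and at -1.84 in counts.

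Where reads of 2 overlapping genes can be confused, the values are less certain. Exons of 14 of the 40 genes overlap exons of a gene on the opposite strand in GENCODE M21, and whether the counting used strand is not given in the sources used here. The overlap covers 84.2% of the exonic bases of Fen1 (with Tmem258 and Gm10143), 67.3% of Gins2 (with Gse1) and 52.5% of Chaf1a (with Ubxn6). Gse1 averaged 56.4, 123 and 59.1 CPM in calycosin plus LPS, LPS and vehicle libraries, Tmem258 22.6, 20.03 and 30.9 CPM, and Ubxn6 28.2, 31.9 and 42 CPM. With LPS, Gse1 moved the opposite way to Gins2, by a log2 fold change of 1.06 (SE 0.22) (edgeR adjusted p = 0.00253). Both partners of Fen1 fell with LPS, as Fen1 did. The log2 fold change was -0.63 (SE 0.24) for Tmem258 and -4.81 (SE 1.03) for Gm10143 (edgeR adjusted p = 0.0476 and 0.00309). Gm10143 had few counts, with averages of 0.473, 0.103 and 2.89 CPM in calycosin plus LPS, LPS and vehicle libraries. Some of the 40 genes also overlap genes on the same strand, among them Cdt1 with the protein-coding gene Gm20388. Exonic bases shared on the same strand were not measured. The part of shared reads in the values of any of these genes was not tested.

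Calycosin plus LPS was next compared with LPS, which measured how the pretreated cells differed from other cells that had received LPS. Since solvent use in the LPS cells is not given, calycosin cannot be told apart from solvent or handling during the 24 h. With calycosin, 31 of the 40 genes were higher than with LPS alone and none was lower, and 15 of the 31 were at least 2-fold higher. Ung, Cdca7, Ccne2, Gins2 and Gins3 had the largest log2 fold changes. The genes that did not pass the test were Cdc45, Cdt1, Fen1, Gins1, Pcna, Pola2, Rfc2, Rfc3 and Slbp. The 40 genes took 1244, 1326 and 1242 CPM in the calycosin plus LPS libraries, against 841, 853 and 887 CPM in the LPS libraries.

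Over all genes tested, the test called 16.1% higher and 12.9% lower in calycosin plus LPS cells than in LPS cells (edgeR, adjusted p below 0.05), against 77.5% and 0% of the 40, and 7.05% were at least 2-fold higher. The median log2 fold change of the 40 genes was 0.91, against 0.02 over all genes. In 34 of the 40 every calycosin plus LPS library was above every LPS library, which held for 26.3% of all genes, and in 1 (Cdt1) every one was below, as in 23.4% of all genes. This comparison and the one before it share the LPS libraries. Without calycosin plus LPS replicate 2 and vehicle replicate 3, 33 were higher and 1 lower. Among libraries with over 10% mitochondrial counts 29 were higher and 1 lower, and in limma on log2(TPM + 1) 19 were higher.

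**Figure D3:**
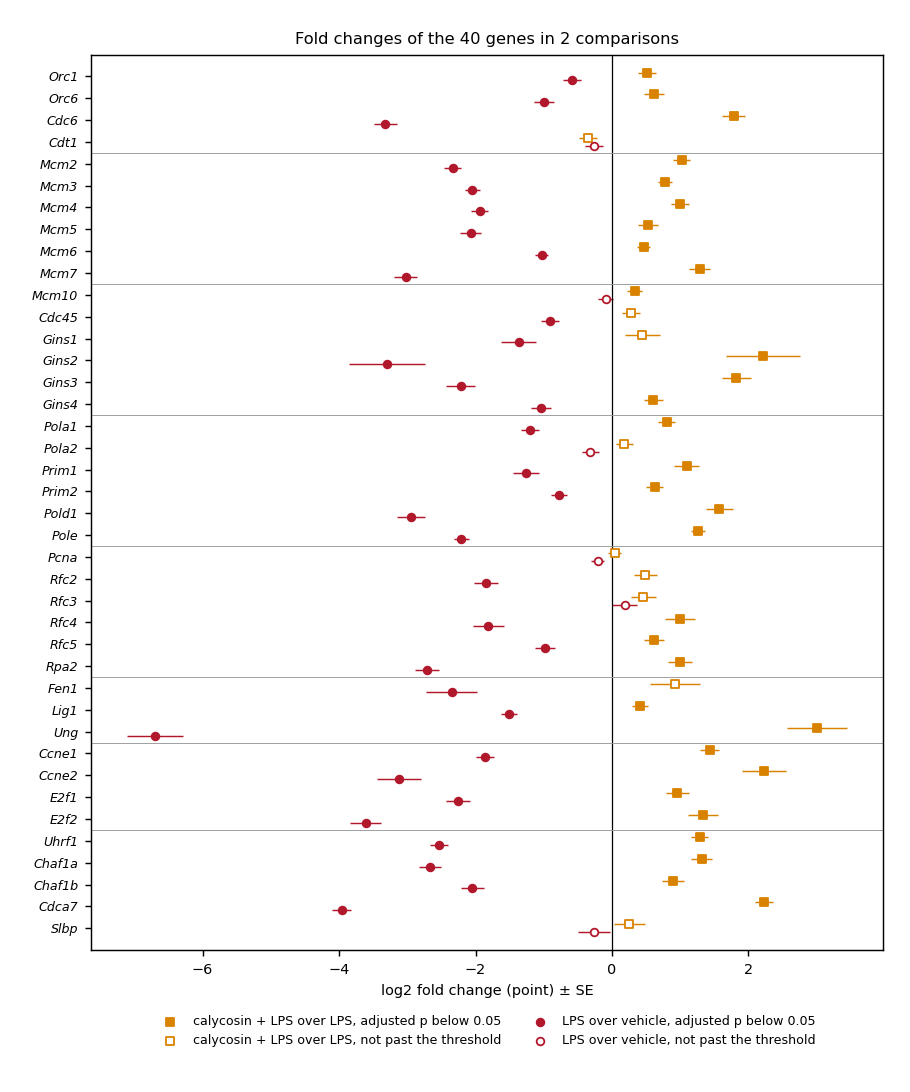
Log2 fold change (point) with its SE (bar) for each of the 40 genes, grouped by role from top to bottom, for calycosin plus LPS over LPS (orange squares) and LPS over vehicle (red circles); filled symbols passed an adjusted p below 0.05 in edgeR. Nearly all orange squares lie right of 0 and nearly all red circles left of it, with 3.00 and -6.70 for Ung and 0.04 and -0.21 for Pcna.

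In the licensing group, Cdc6 had 6.89, 7.63 and 6.8 CPM in calycosin plus LPS libraries, above all LPS libraries, with a log2 fold change of 1.78 (SE 0.16) (edgeR adjusted p = 0.000138). Orc6 and Orc1 were 1.53-fold and 1.43-fold higher, and the call of Orc1 was lost without LPS replicate 2 (edgeR adjusted p = 0.0585) or without calycosin plus LPS replicate 2 (0.0543). Cdt1 had 36.7, 47.5 and 40.5 CPM with calycosin plus LPS, each below every LPS library. It was the only 1 of the 40 with that order, and its log2 fold change of -0.35 (SE 0.13) missed the threshold (edgeR adjusted p = 0.0701, and 0.0414 without calycosin plus LPS replicate 2). On the log2(TPM + 1) scale, which raised the median of all genes to 0.25, the difference of Cdt1 was 0.03.

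All 6 helicase genes were higher with calycosin before LPS. Mcm7 had 25.3, 29.2 and 25 CPM with calycosin plus LPS, 2.43-fold above LPS (edgeR adjusted p = 0.000486). Mcm2 had 65.1, 74.2 and 68.2 CPM and was 2.03-fold above LPS. Mcm4 had 42.7, 42.1 and 47.8 CPM and was 1.99-fold above LPS. In these 3 genes and in the other 3 every calycosin plus LPS library was above every LPS library. Mcm3 had 49.5, 45.4 and 43.1 CPM, 1.71-fold above LPS, and Mcm6 had 100.7, 93.9 and 100.5 CPM, 1.38-fold above LPS. Mcm5 had 45.8, 55 and 41.4 CPM, and its log2 fold change of 0.53 (SE 0.15) passed at an edgeR adjusted p of 0.0262. That call was lost when any LPS library or calycosin plus LPS replicate 1 or 2 was left out, with adjusted p from 0.0501 to 0.0896.

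Of the helicase activators, Gins3 had 16.1, 16.4 and 13.9 CPM in calycosin plus LPS libraries, 3.54-fold above LPS (edgeR adjusted p = 0.000382). Gins2 had 16.5, 25.7 and 4.5 CPM in those libraries, and they disagreed: replicate 3 lay just above the LPS libraries and replicate 2 was the closest to the vehicle level. Its log2 fold change of 2.21 (SE 0.54) passed (edgeR adjusted p = 0.0132) but did not without LPS replicate 2 (0.0528). Gins4 was 1.52-fold higher, and Gins1 missed the threshold at a log2 fold change of 0.44 (SE 0.26) (edgeR adjusted p = 0.226; 0.0219 without LPS replicate 3). Mcm10 had 32.2, 36.9 and 35.9 CPM with calycosin plus LPS, above all LPS and all vehicle values. Its call (log2 fold change 0.33 (SE 0.11), edgeR adjusted p = 0.0472) was lost when any 1 of 8 libraries was left out, and Cdc45 did not pass (0.28, adjusted p = 0.137).

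Genes of primer synthesis and elongation were higher with calycosin plus LPS, apart from Pola2. Pold1 had 18.6, 23.5 and 17.6 CPM with calycosin plus LPS, 2.97-fold above LPS, and Pole was 2.4-fold above LPS (edgeR adjusted p = 0.000524 and 8.16e-05). Prim1, Pola1 and Prim2 were 2.14-fold, 1.74-fold and 1.54-fold higher. Pola2 had 50.1, 46.3 and 50.4 CPM, and its log2 fold change over LPS was 0.18 (SE 0.13) (edgeR adjusted p = 0.312).

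Among the clamp genes, Pcna had 214, 235 and 234 CPM with calycosin plus LPS, overlapping the LPS libraries, with a log2 fold change of 0.04 (SE 0.10) (edgeR adjusted p = 0.809). Rpa2 had 8.27, 9.46 and 9 CPM with calycosin plus LPS and was 1.99-fold above LPS. Rfc4 and Rfc5 were 1.996-fold and 1.52-fold higher, while Rfc2 (0.49) and Rfc3 (0.46) did not pass (edgeR adjusted p = 0.061 and 0.0821). Rfc2 passed without LPS replicate 3 (0.0375) or without vehicle replicate 3 (0.0193), and the call of Rfc5 was lost without LPS replicate 1 (0.05). Rfc3 had 28.6, 38.8 and 25 CPM in calycosin plus LPS libraries, of which replicate 2 was the highest of all 9 libraries.

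Ung had 58, 68 and 23 counts, or 1.82, 1.6 and 0.745 CPM, in calycosin plus LPS libraries, all above the LPS libraries and all far below vehicle. Its log2 fold change over LPS was 3.00 (SE 0.44) (edgeR adjusted p = 0.00111), the largest of the 40 in size. Fen1 had 22.2, 27.4 and 20.5 CPM with calycosin plus LPS, above every LPS library, and missed the threshold (log2 fold change 0.93 (SE 0.36), edgeR adjusted p = 0.0834; 0.0413 without vehicle replicate 3). Lig1 passed at a log2 fold change of 0.41 (SE 0.12) (edgeR adjusted p = 0.024), and did not pass when LPS replicate 1 or 2 or any calycosin plus LPS library was left out (0.0581 to 0.0916).

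All 4 cyclin E and E2F genes were higher with calycosin before LPS. Ccne1 had 27.2, 24.7 and 25.5 CPM with calycosin plus LPS, 2.7-fold above LPS (edgeR adjusted p = 0.000148). Ccne2 had 13.8, 8.8 and 10.8 CPM and was 4.67-fold above LPS (edgeR adjusted p = 0.00106). E2f2 had 5.76, 5.21 and 5.57 CPM and was 2.52-fold above LPS, and E2f1 was 1.95-fold above LPS. No calycosin plus LPS library of these genes overlapped an LPS library.

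Among the chromatin genes, Cdca7 had 10.3, 10.8 and 10.2 CPM with calycosin plus LPS, 4.7-fold above LPS (edgeR adjusted p = 2.62e-05), with libraries close together in all 3 groups. Uhrf1 had 53.3, 60.8 and 50.7 CPM and Chaf1a had 23.4, 25.9 and 23.2 CPM with calycosin plus LPS, 2.43-fold and 2.48-fold above LPS. Chaf1b was 1.85-fold above LPS. Slbp had 37.3, 34.2 and 34.4 CPM and did not pass (log2 fold change 0.25 (SE 0.23), edgeR adjusted p = 0.443; 0.0409 without LPS replicate 2).

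**Figure D4:**
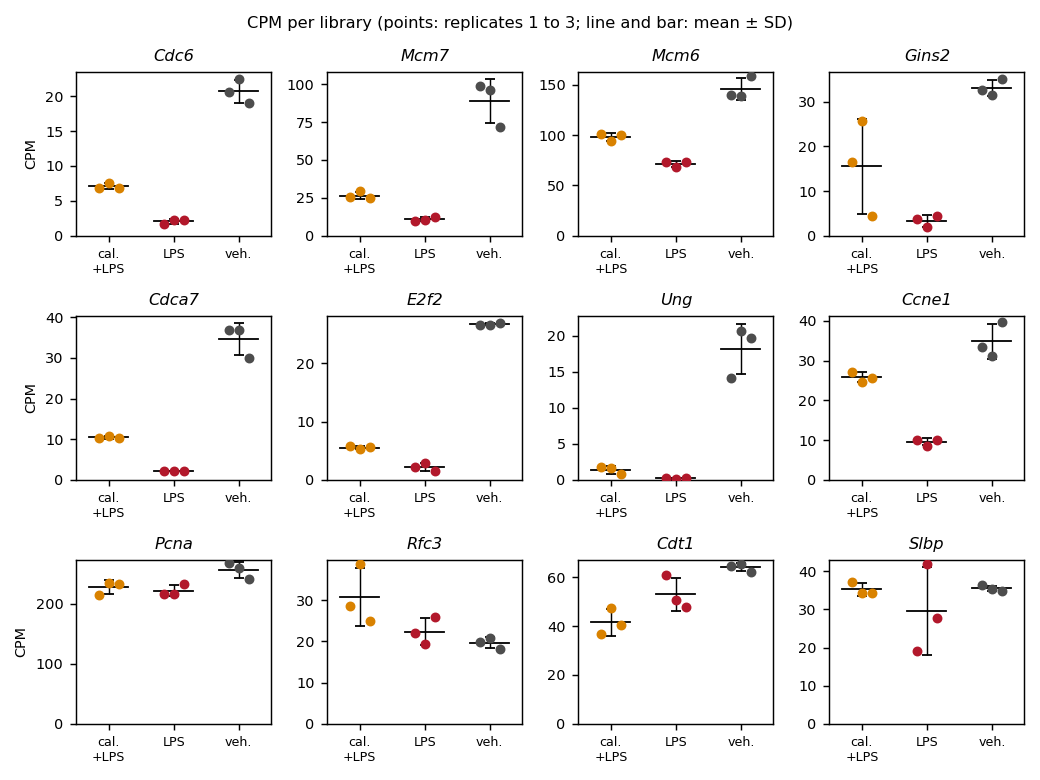
CPM of 12 of the genes in each library (points, replicates 1 to 3) of calycosin plus LPS (cal.+LPS), LPS and vehicle (veh.) cells, with the mean (line) and SD (bar), each y axis starting at 0. In Cdc6, Mcm7, Mcm6, Cdca7, E2f2, Ung and Ccne1 the 3 groups separate in the order LPS, calycosin plus LPS, vehicle from low to high, in Gins2 the calycosin plus LPS libraries spread from 4.50 to 25.7 CPM, and Pcna, Rfc3, Cdt1 and Slbp show no such order.

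The comparison of calycosin plus LPS with vehicle measured how far the genes remained from the level of unstimulated cells. With calycosin plus LPS 29 of the 40 genes were lower than in vehicle cells, 17 of them at least 2-fold, and 1, Rfc3, was higher. The helicase genes Mcm2 to Mcm7, Cdc6, Rpa2, Ung, E2f1, E2f2, Cdca7, Uhrf1 and both Chaf1 genes were among those lower, while Orc1, Prim1, Prim2, Pola2, Pcna, Mcm10, Gins2, Gins3, Rfc5 and Slbp did not pass the test. Over all genes tested 23.6% were lower and 25.4% higher (edgeR, adjusted p below 0.05), and 11.9% were lower by at least 2-fold. The median log2 fold change of the 40 genes was -0.93, against -0.0045 over all genes, and in 33 of the 40 every calycosin plus LPS library was below every vehicle library, as in 27.1% of all genes. In 2, Mcm10 and Rfc3, every one was above, as in 29.1% of all genes.

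The genes differed in how much of the vehicle level was present. Ccne1 stood at 74.1% of the vehicle mean with calycosin plus LPS and at 27.5% with LPS, and Gins3 at 76% and 21.5%. Prim1 stood at 89.1% with calycosin plus LPS and 41.7% with LPS. By contrast E2f2 stood at 20.6% with calycosin plus LPS and 8.16% with LPS, Rpa2 at 30.5% and 15.3%, and Ung at 7.64% and 0.943%. Differences between genes in these percentages were not tested, and the 6 genes were picked after their values were seen.

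In size, the largest falls against vehicle were those of Ung (log2 fold change -3.70 (SE 0.31)), E2f2 (-2.28 (SE 0.20)), Mcm7 (-1.74 (SE 0.16)), Cdca7 (-1.73 (SE 0.12)), Rpa2 (-1.71 (SE 0.17)) and Mcm5 (-1.55 (SE 0.15)), with edgeR adjusted p from 3.29e-06 to 3.75e-05. Rfc3 was 1.57-fold higher (edgeR adjusted p = 0.0142), but not without calycosin plus LPS replicate 2 and vehicle replicate 3 together, where none of the 40 was higher and 30 were lower. The call of Rfc3 was lost in 5 of 22 alternatives, among them both limma fits on TPM and the GC content offset. Cdt1 passed in this comparison, at a log2 fold change of -0.62 (SE 0.13) (edgeR adjusted p = 0.00357). The calls of Orc6, Gins4, Pola1, Ccne1 and Ccne2 were each lost without calycosin plus LPS replicate 2, and without some other libraries (edgeR adjusted p up to 0.139 over these). Gins2 passed without calycosin plus LPS replicate 2 (0.0258), Gins3, Pcna and Rfc5 without vehicle replicate 3 (0.0106, 0.0282 and 0.0103), and among libraries with over 10% mitochondrial counts, with 1 vehicle library assumed to vary like the other groups, 23 genes were lower.

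Levels can be set against each other between genes only per length, as deposited TPM. On that scale Pcna was the most abundant of the 40 in every group, with 254 ± 61.4 TPM in calycosin plus LPS cells, 194 ± 14.2 TPM in LPS cells and 401 ± 128 TPM in vehicle cells (mean ± SD, n = 3). The helicase genes spanned 53.7 to 124 TPM in vehicle cells, where neighbours in that order overlapped in their spread. Orc1 was lowest in vehicle cells, with 9.31 ± 2.46 TPM, against 6.63 ± 1.88 TPM with calycosin plus LPS and 3.77 ± 0.268 TPM with LPS. Ung was lowest in both LPS-treated groups, at 1.08 ± 0.559 TPM with calycosin plus LPS and 0.0794 ± 0.0299 TPM with LPS, against 20.3 ± 6.74 TPM with vehicle. For most of the 40 genes TPM was lowest in vehicle replicate 3, the vehicle library with the highest mitochondrial share, though not for Ccne2. The part of that share in these SDs was not tested.

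Within several complexes, the mRNAs of subunits did not keep a fixed ratio. The ratio of Mcm7 to Mcm6 counts was 0.251, 0.311 and 0.249 in calycosin plus LPS libraries, 0.132, 0.156 and 0.169 in LPS libraries, and 0.703, 0.688 and 0.455 in vehicle libraries. The ratio of Rfc4 to Rfc3 counts was 0.306, 0.207 and 0.301 with calycosin plus LPS, 0.172, 0.172 and 0.196 with LPS, and 0.766, 0.827 and 0.569 with vehicle. The ratio of Pola1 to Pola2 counts was 0.569, 0.501 and 0.535 with calycosin plus LPS, 0.331, 0.387 and 0.329 with LPS, and 0.658, 0.676 and 0.602 with vehicle. Within each of these 3 pairs the groups did not overlap and stood in the same order, LPS lowest and vehicle highest. In the other pair examined, the ratio of Gins2 to Gins4 counts was 0.926, 1.43 and 0.255 with calycosin plus LPS, 0.289, 0.197 and 0.359 with LPS, and 1.40, 1.46 and 1.29 with vehicle. There the calycosin plus LPS libraries overlapped both other groups. A ratio within a library does not depend on how libraries are scaled; the 4 pairs were chosen after their values were seen, and no test was run on them.

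Other genes of the pathway were examined as named lists. Their counts stand against 28.9% of all genes tested lower and 27.3% higher with LPS, and 16.1% higher and 12.9% lower when calycosin plus LPS was set against LPS. Of 24 other replication factors 17 fell and 5 rose with LPS, and with calycosin before LPS 14 were higher and 1 lower than with LPS alone. Wdhd1, which links the helicase to polymerase alpha, averaged 12.2 ± 1.24 CPM with calycosin plus LPS, 3.18 ± 1.23 CPM with LPS and 39.2 ± 1.58 CPM with vehicle (SD, n = 3). Cdc7, the kinase that activates the helicase, averaged 12.1 ± 1.38 CPM with calycosin plus LPS, 3.73 ± 0.789 CPM with LPS and 19.2 ± 1.41 CPM with vehicle. Gmnn, the inhibitor of Cdt1, fell 4.34-fold with LPS and was 2.58-fold higher with calycosin plus LPS than with LPS. Those that rose with LPS were Orc3, Orc4, Pold3, Top1 and Mcmbp, named after their values were seen. This count was not above the share of all genes that rose; it was 2 to 5 when 1 library was left out and 0 in limma on log2(TPM + 1). Mcmbp, which binds free MCM proteins, was also the 1 gene of the list lower with calycosin plus LPS.

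Fork protection, checkpoint and chromatin assembly genes made up a further list. Of 18, 14 fell and 1 rose with LPS, and calycosin before LPS left 13 higher and 3 lower than LPS alone did. Wee1, the kinase that holds back entry into mitosis, averaged 9.91 ± 1.46 CPM with calycosin plus LPS, 2.17 ± 0.231 CPM with LPS and 26.9 ± 5.75 CPM with vehicle. Brca1, a repair and fork protection factor, averaged 20.9 ± 1.5 CPM with calycosin plus LPS, 5.82 ± 0.758 CPM with LPS and 35.2 ± 6.15 CPM with vehicle. Clspn, the adaptor of the checkpoint kinase Chek1, fell 6.05-fold with LPS and was 2.75-fold above LPS with calycosin. Timeless, part of the fork protection complex, rose 3.35-fold with LPS; it was lower with calycosin plus LPS, as were Asf1a and Rbbp4, 3 calls named after their values were seen, a count that was 0 to 4 when 1 library was left out and 0 in limma on log2(TPM + 1).

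Nucleotide supply was the list in which every gene passed the test with LPS. Of 19 genes 17 fell and 2, Samhd1 and Dck, rose. Rrm2, the S-phase subunit of ribonucleotide reductase, averaged 34.7 ± 0.953 CPM with calycosin plus LPS, 15.6 ± 0.989 CPM with LPS and 93.8 ± 3.12 CPM with vehicle. Samhd1, an enzyme that breaks down deoxynucleotides, averaged 476 ± 68.8 CPM with calycosin plus LPS, 1033 ± 20.1 CPM with LPS and 90.8 ± 18.4 CPM with vehicle. Of these mRNAs, that of Rrm2 was lowest with LPS and that of Samhd1 highest, and Samhd1 rose 11.4-fold with LPS (edgeR adjusted p = 2.37e-07). With calycosin plus LPS 11 of the 19 were higher than with LPS and 1, Samhd1, was lower; 7 to 14 were higher when 1 library was left out, and 3 in limma on log2(TPM + 1). Ctps and Umps, of pyrimidine synthesis, were 2.29-fold and 2.21-fold higher, and the thymidine kinase gene Tk1, which fell 5.83-fold with LPS, was 1.55-fold higher.

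The G1 regulators did not move one way. Of 15 genes 12 had enough counts; 6 fell and 4 rose with LPS, and calycosin before LPS left 2 higher and 4 lower. The shares that rose with LPS and that were higher with calycosin were near those of all genes, 27.3% and 16.1%, and in limma on log2(TPM + 1) none was called lower with calycosin plus LPS. Cdkn1a, which encodes the CDK inhibitor p21, averaged 489 ± 12.4 CPM with calycosin plus LPS, 772 ± 12.7 CPM with LPS and 229 ± 4.91 CPM with vehicle. Cdkn2c, another CDK inhibitor gene, went the other way, with the largest fall of the list with LPS (log2 fold change -2.60). It also had the largest rise of the list with calycosin plus LPS over LPS (log2 fold change 1.01). Ccnd1, a cyclin of G1, averaged 173 ± 10.7 CPM with calycosin plus LPS, 278 ± 2.81 CPM with LPS and 379.5 ± 40.6 CPM with vehicle, so that it was lower than LPS with calycosin, unlike the 31 genes above. Ccnd2 and Cdk6 rose 2.94-fold and 4.06-fold with LPS and were lower with calycosin plus LPS (log2 fold change -0.81 and -0.49). Myc, a growth regulator, had 11.5, 8.5 and 15.2 CPM with calycosin plus LPS and 14.8, 14.4 and 16.8 CPM with LPS. It had 0.161, 0.0617 and 0.517 CPM with vehicle, and rose with LPS. The vehicle values were low, with replicate 2 near the limit of detection, so the size of that rise rests on few counts. Skp2, which directs the destruction of CDK inhibitors, fell 2.48-fold with LPS and was 1.9-fold above LPS with calycosin.

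Of 11 other E2F and pocket protein genes 6 fell and 1 (Rbl1) rose with LPS, and 6 were higher and none lower with calycosin plus LPS (3 higher in limma on log2(TPM + 1)). Tfdp2, a dimer partner of the E2Fs, averaged 6.6 ± 1.45 CPM with calycosin plus LPS, 3.69 ± 1.1 CPM with LPS and 42.5 ± 3.76 CPM with vehicle. Rbl2, which encodes the pocket protein p130, averaged 25.4 ± 3.57 CPM with calycosin plus LPS, 8.53 ± 1.17 CPM with LPS and 38.3 ± 9.9 CPM with vehicle. E2f7, a repressor of the family, fell 5.21-fold with LPS and was 2.64-fold above LPS with calycosin. Thus E2f1 and E2f2, known as activators, and E2f7 and E2f8, known as repressors, all fell with LPS.

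Of 20 G2 and mitosis genes 17 fell and 1 (Cenpe) rose with LPS, and calycosin before LPS left 9 higher and none lower. Foxm1, a transcription factor of mitotic genes, averaged 17.3 ± 4.22 CPM with calycosin plus LPS, 8.75 ± 1.66 CPM with LPS and 56.6 ± 15.8 CPM with vehicle. Ccna2, the cyclin of S phase and G2, averaged 42.1 ± 2.46 CPM with calycosin plus LPS, 26.1 ± 3.61 CPM with LPS and 92.1 ± 16.1 CPM with vehicle. None of the 20 was at least 2-fold above LPS with calycosin, against 15 of the 40 replication genes; that difference was not tested.

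Replication-dependent histone genes were measured with wide uncertainty. Only 13 of 70 had enough counts, mRNAs of this class typically lack the poly-A tail that the capture needs, and near-identical copies can share reads. The 70 were taken by the start of their symbols, so not all need be replication-dependent. With LPS 3 fell and none rose, a share of falls near the 28.9% of all genes, and 7 fell in limma on log2(TPM + 1). With calycosin plus LPS 5 were lower than with LPS and none higher, and 1 was lower in limma on log2(TPM + 1). Hist1h1c, a linker histone gene, averaged 1.4 ± 0.828 CPM with calycosin plus LPS, 3.66 ± 0.815 CPM with LPS and 9.16 ± 2.82 CPM with vehicle. The 13 mitochondrially encoded mRNAs gave no call in either comparison in edgeR (with LPS, 0 to 13 were called higher when 1 library was left out), with median log2 fold changes of -0.26 for calycosin plus LPS over LPS and 0.93 for LPS over vehicle.

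**Figure D5:**
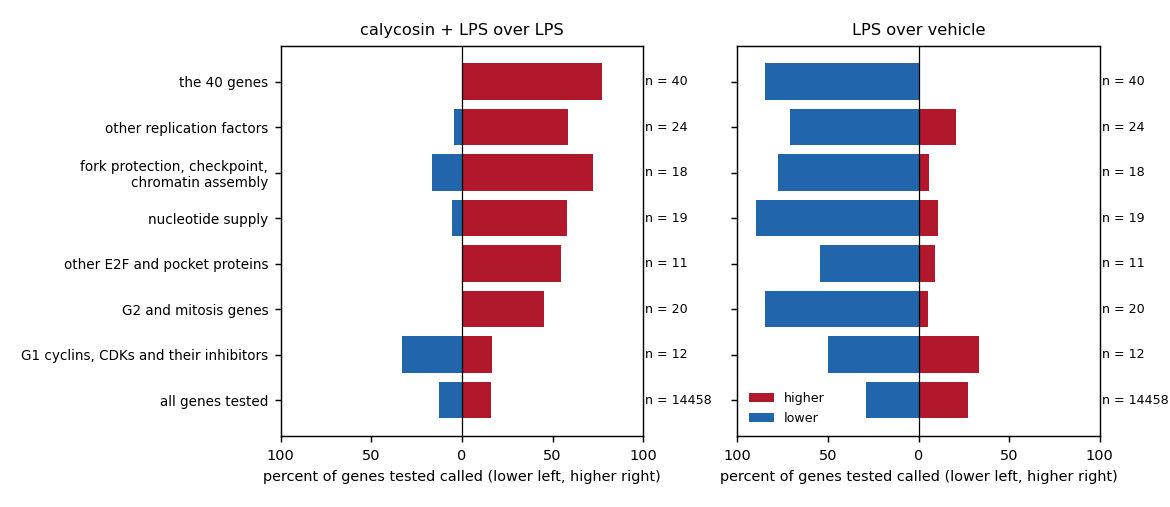
Percent of the genes tested in each list that were called higher (red, right) or lower (blue, left) at an adjusted p below 0.05 in edgeR, for calycosin plus LPS over LPS and for LPS over vehicle, with the number tested at the right and all genes tested in the bottom row. The 40 genes, at 77.5% higher with calycosin plus LPS and 85% lower with LPS, have nothing on the other side, and the G1 regulators have calls on both sides.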

How the data were processed

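The authors deposited raw whole-number counts for 51826 genes with Ensembl identifiers, and TPM values, which they scaled for transcript length and library depth, for 51799 genes. Per the submitters' processing notes they used Trimmomatic 0.36, HISAT2 2.0 and StringTie 1.3.3b with build mm10, in no stated order. The counter, annotation release, strandedness and handling of multiply mapping reads were not given in the sources used here; these can shift the counts of overlapping or near-identical genes. In the symbol column 27 entries read as calendar dates, so genes were joined by Ensembl identifier.

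Genes were filtered with edgeR's filterByExpr by group, which left 14458, and libraries were scaled by TMM, with factors from 0.786 to 1.42. A model of all 9 libraries with 1 term per group was fitted in edgeR 4.0.16 (R 4.3.3), groups were compared by the two-sided quasi-likelihood test, and p was adjusted after Benjamini and Hochberg across the genes tested, with a threshold of 0.05. The SE was derived from the test statistic. The test was checked on simulated counts with known changes. Those counts were drawn independently for each gene, so the check does not cover the differences in mitochondrial share between replicates. With 3 libraries against 3, tests on a single gene rest on the dispersion shared across genes.

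Total counts of 27784737 to 38524105 put the limit of detection of 3 counts at 0.0779 to 0.108 CPM of the total; it covers counting error only, since reads carry no molecular identifiers. No 2 libraries were duplicates, and no column was left without a sample. Deviations from the group means correlated at -0.17 to 0.36 between same-numbered libraries of different groups. The highest value was that of replicate 2 of vehicle and of calycosin plus LPS (0.364). Vehicle replicate 1 was almost as high with that same calycosin plus LPS library (0.358). These correlations cannot settle whether numbers mark pairs, and the main fit used numbers only as names of cultures.

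Alternatives were DESeq2 1.42.0, its size factors in edgeR, other filters, limma 3.58.1 on log2 TPM with pseudocounts of 1 and 0.1, a replicate block, the mitochondrial share as covariate, mitochondrial genes left out, libraries left out, and a fit of the 2 groups only. Added after seeing the data were a fit on libraries above 10% mitochondrial counts and a GC content offset for the 14425 genes with a value. Promoters came from a RefSeq table (GRCm38.p6) and positions from GENCODE M21 (GRCm38). The members and lists were chosen with earlier results of these data known, so no list was given a test. Values in every library are given for the 12, 8 and 6 genes with the largest change in the 3 comparisons, for those not called with LPS, and for the helicase genes and Pcna; up to 4 genes with the largest change were taken per list and comparison.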

Additional observations from a re-analysis of the deposited data

How the results depend on the processing

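With LPS against vehicle 34 to 39 of the 40 genes were lower under the alternatives and none was higher, and the 34 were called lower each time. For calycosin plus LPS against LPS 27 to 34 were higher in the count-based alternatives and 19 in limma on log2(TPM + 1); 19 of the 31 kept the call in every alternative. Against vehicle, 2 genes were higher with the mitochondrial share as covariate. TPM carries the composition of a library into every gene: in limma on log2(TPM + 1), then on log2(TPM + 0.1), genes higher and lower with LPS numbered 1476 and 6962, then 1481 and 6960. For calycosin plus LPS against LPS they were 1423 higher and 335 lower, then 333 lower, and against vehicle 1500.0 higher, then 1496. The mitochondrial covariate gave 3307 genes lower for calycosin plus LPS against LPS, and libraries above 10% mitochondrial counts gave 1994 lower against vehicle.

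The median log2 fold change of the 40 genes with LPS was -2.55 and -2.72 in the TPM fits, -1.78 in libraries above 10% mitochondrial counts, -1.76 with the GC offset, -2.01 without both libraries that stood apart, and -2.01 to -1.88 with 1 library left out. For calycosin plus LPS against LPS it was 1.00 and 1.22 in the TPM fits and 0.80 to 0.93 with 1 library left out, and against vehicle -1.26 and -1.32, and -1.02 to -0.89.

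Among other replication factors, the count higher with LPS was 0 in both TPM fits, 3 in the fit of 2 groups, 2 in libraries above 10% mitochondrial counts, 3 with the GC offset and 2 to 5 with 1 library left out; with the mitochondrial covariate 3 were lower with calycosin plus LPS. Of fork protection genes lower with calycosin plus LPS, 0 were called without a filter or in either TPM fit, and 0 to 4 with 1 library left out. In nucleotide supply the TPM fits gave 1 gene higher with LPS and 3 higher with calycosin plus LPS, and leaving out 1 library 7 to 14. The G1 regulators had 3 lower with LPS in libraries above 10% mitochondrial counts, and with calycosin plus LPS 1 higher and 0 lower in both TPM fits and 1 to 2 higher with 1 library left out. The other E2F genes had 2 higher with LPS under the mitochondrial covariate and without both libraries, 0 to 2 with 1 library left out, and 3 higher with calycosin plus LPS in limma on log2(TPM + 1). The mitochondrial covariate gave 2 mitosis genes lower with calycosin plus LPS. Histone genes lower with LPS were 7 and 6 in the TPM fits, and with calycosin plus LPS 3 at 1 CPM in 3 libraries, 1 and 2 in the TPM fits and 3 to 5 with 1 library left out.

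Mitochondrial mRNAs were the list most bound to single libraries. With LPS 12 were higher under the mitochondrial covariate, 13 without both libraries, 0 to 13 with 1 library left out and 2 with the replicate block, and 2 were lower in libraries above 10% mitochondrial counts. With calycosin plus LPS 2 were higher without both libraries, and 11 were lower under the covariate. The causes were not tested. With the replicate block 34 of the 40 were lower with LPS, 29 higher with calycosin plus LPS than with LPS, and 27 lower and 1 higher than with vehicle; not every library correlated best with its own number. Leaving out 1 library leaves a group of 2, and the fit above 10% mitochondrial counts holds a lone vehicle library assumed to vary like the other groups. Few counts limit Ung, the vehicle level of Myc and the histone genes.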
